A study of Arabidopsis thaliana with 12 samples.

Results

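Phosphoribulokinase (PRK, AT1G32060) and sedoheptulose-bisphosphatase (SBPASE, AT3G55800), both of the Calvin cycle, were examined together with pyruvate phosphate dikinase (PPDK, AT4G15530). These 3 genes were chosen by name, and each had 1 probe annotated to it alone (probes 3151, 1517 and 349), among 691 genes with a probe of their own on the array. The plants were wild-type Arabidopsis thaliana, ecotype C24. One group of 6 array columns came from plants grown in light that acts on photosystem I (PSI light), and the other 6 from plants that had the same light and DCMU, which inhibits photosynthetic electron transport. The comparison asks which transcripts differ when DCMU is added in PSI light. The sources used here give no tissue, plant age, dose or duration of DCMU.

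In the Calvin cycle, chloroplasts use the ATP and NADPH made by light to turn carbon dioxide into sugar phosphates. PRK uses ATP to make ribulose bisphosphate, the acceptor of carbon dioxide, and SBPASE removes a phosphate from sedoheptulose bisphosphate, which commits carbon to renewing that acceptor. Both enzymes are switched on in light by thioredoxin, which receives electrons from photosystem I through ferredoxin. PPDK turns pyruvate, ATP and phosphate into phosphoenolpyruvate. It is best known from the carbon-concentrating photosynthesis of maize. In Arabidopsis it has a plastid and a cytosolic form and acts in seedling metabolism and in the export of nitrogen from ageing leaves. DCMU stops electron flow out of photosystem II, and PSI light drives mainly photosystem I.

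PRK rose and PPDK fell with DCMU, and SBPASE did not pass the test. PRK was 2.30-fold higher (95% interval 1.52 to 3.47), PPDK was 1.45-fold lower, and SBPASE stood at a ratio of 1.34 (1.07 to 1.69). So 1 of the 3 was called higher and 1 lower. Over all 3439 probes, 18.1% were called higher, 25% lower and 43.1% in either direction, so a call as such does not set these genes apart. PPDK was not called once its neighbours in the array numbering were corrected for. Total RNA was measured, so fewer cells of a type and less RNA per cell cannot be told apart.

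The deposited values are relative intensities, scaled to the brightest probe of each column. PSI light columns had medians of 0.542 to 0.584 and DCMU columns of 0.386 to 0.504, and quantile normalisation removed this difference. Within a group, columns 1 and 2, 3 and 4, and 5 and 6 resembled each other more than other columns did (Spearman correlation 0.976 to 0.991 against 0.921 to 0.960). Each such couple was averaged and counted as 1 replicate, so n = 3 per group. The labels state neither this nor separate cultures, so p-values cover only the spread of these samples, possibly a technical one. limma's model of the 6 averages called 1483 probes at an adjusted p of 0.05, 624 higher and 859 lower with DCMU. With no scaling between columns these were 425 higher and 1172 lower, and with equal column totals 474 and 1058. The median log2 fold change of all probes was -0.06 as reported, -0.32 with no scaling and -0.23 with equal totals.

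In deposited units, the PRK probe read 0.425, 0.499, 0.446, 0.456, 0.510 and 0.592 in PSI light columns 1 to 6. With DCMU it read 0.684, 0.811, 0.895, 0.794, 0.999 and 1.18. The lowest DCMU value was thus higher than the highest PSI light value as deposited, relative to the brightest probe of each column. After quantile normalisation the level of PRK went from -1.20 ± 0.21 to 0.00 ± 0.38 log2 relative intensity (SD, n = 3). The log2 fold change was 1.20 (SE 0.23, 95% interval 0.61 to 1.79), and limma's model over all probes gave an adjusted p of 0.0140.

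Of the 3 genes, PRK varied most among the DCMU averages. They stood at -0.36 in columns 1 and 2, -0.03 in columns 3 and 4, and 0.40 in columns 5 and 6. In PSI light the averages were -1.28, -1.35 and -0.96. Columns 5 and 6 were thus the highest in both groups, and the groups stayed 0.61 apart on the log2 scale at their nearest. The columns of 1 couple differed by 0.01 to 0.25, less than the range across the DCMU averages. Without PSI light columns 1 and 2, the log2 fold change was 1.14 and the adjusted p 0.0501.

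The SBPASE probe read 0.425, 0.451, 0.671, 0.528, 0.534 and 0.587 in PSI light columns 1 to 6. With DCMU it read 0.595, 0.623, 0.537, 0.555, 0.516 and 0.499. In these deposited values all 6 DCMU columns lay within the PSI light range. After quantile normalisation SBPASE stood at -1.07 ± 0.23 in PSI light and at -0.65 ± 0.04 with DCMU (SD, n = 3). The log2 fold change was 0.42 (SE 0.13, 95% interval 0.09 to 0.76), with an adjusted p of 0.0512. The interval is for this gene alone, without adjustment for the number of probes.

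The SBPASE averages in PSI light were -1.34 in columns 1 and 2, -0.94 in columns 3 and 4, and -0.94 in columns 5 and 6. With DCMU they were -0.66, -0.68 and -0.61. The spread of SBPASE thus lay in PSI light, where columns 1 and 2 were low. Without those 2 columns the log2 fold change was smaller, at 0.28, but passed (adjusted p = 0.0208). The normalised groups of 6 columns did not overlap, but at their nearest they were 0.05 apart. The value of SBPASE depended on the scaling: its log2 fold change was 0.07 with no scaling (adjusted p = 0.751), 0.16 with equal totals (adjusted p = 0.431) and 0.54 with cyclic loess (adjusted p = 0.0308).

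The PPDK probe read 1.88, 1.70, 1.75, 1.48, 1.42 and 1.74 in PSI light columns 1 to 6. With DCMU it read 1.08, 0.978, 0.920, 0.843, 0.817 and 0.756. As deposited, the value was lower in every DCMU column than in every PSI light column. The medians of the DCMU columns were also lower, at 0.386 to 0.504 against 0.542 to 0.584. These medians are relative to the brightest probe of each column, so they do not give the brightness of a column as a whole. In deposited intensity 48.1% of all probes did not overlap between the groups. After quantile normalisation PPDK went from 0.59 ± 0.07 to 0.05 ± 0.08 log2 relative intensity (SD, n = 3). It fell by 0.54 on the log2 scale (SE 0.06, 95% interval -0.70 to -0.37), with an adjusted p of 0.00376 in limma's model.

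PPDK had the smallest SE of the 3 genes. Its averages in PSI light were 0.66, 0.57 and 0.53 in columns 1 and 2, 3 and 4, and 5 and 6, and with DCMU they were 0.14, 0.02 and -0.01. In PSI light the columns of 1 couple differed by 0.14 to 0.34, more than the 3 averages did. In limma's model of the 12 columns, where each column counts, the SE was 0.08 and the adjusted p 9.76e-05; that model called 61.3% of all probes. By RefSeq's TAIR10.1 annotation PPDK has 7 transcripts, against 1 each for PRK and SBPASE, and the files do not say which of them the probe reads.

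**Figure D1:**
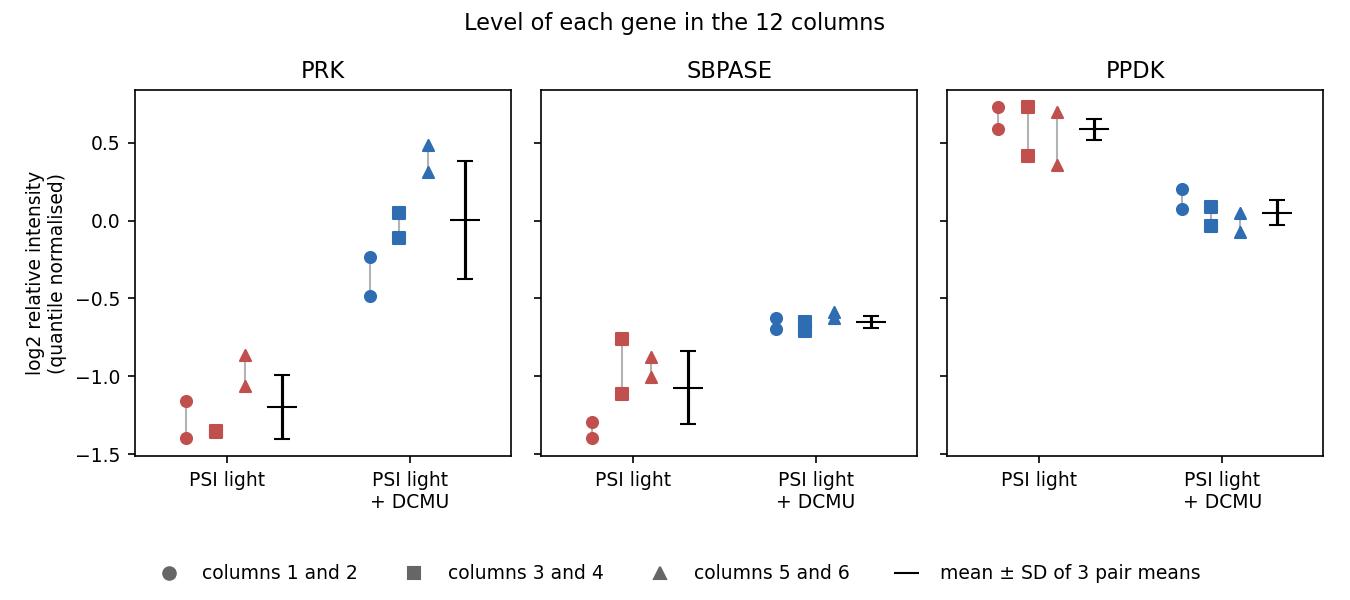
Log2 relative intensity after quantile normalisation of PRK, SBPASE and PPDK in the 12 columns. Symbols mark columns 1 and 2, 3 and 4, and 5 and 6, grey lines join the columns averaged together, and black bars are the mean ± SD of the 3 averages. PRK spans -0.36 to 0.40 among the DCMU averages, SBPASE spreads more in PSI light than with DCMU, and PPDK is lower with DCMU in every column.

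None of the 3 genes overlapped between the groups over the 3 averages, which also held for 55.3% of all probes. Over the 6 normalised columns none of them overlapped either, as for 43.5% of all probes. In deposited intensity PRK and PPDK did not overlap, as for 48.1% of all probes, and SBPASE did.

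The rank of a probe within its column does not depend on the scaling of that column. PRK stood at the 37.0th to 53.6th percentile of the probes in PSI light and at the 66.1st to 87.4th with DCMU. Its mean percentile moved from 43.0 ± 6.4 to 78.1 ± 8.2 (SD, n = 3), by 35.0 points. SBPASE moved from 47.0 ± 7.3 to 60.6 ± 1.3, by 13.7 points, and its ranges were 37.0 to 56.9 and 58.5 to 62.8. PPDK moved from 88.5 ± 0.9 to 80.0 ± 1.6, with ranges of 85.6 to 90.1 and 77.3 to 83.0. The ranks of each gene did not overlap between the groups, SBPASE included, which also held for 44.2% of all probes. A rank also moves when other probes change.

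**Figure D2:**
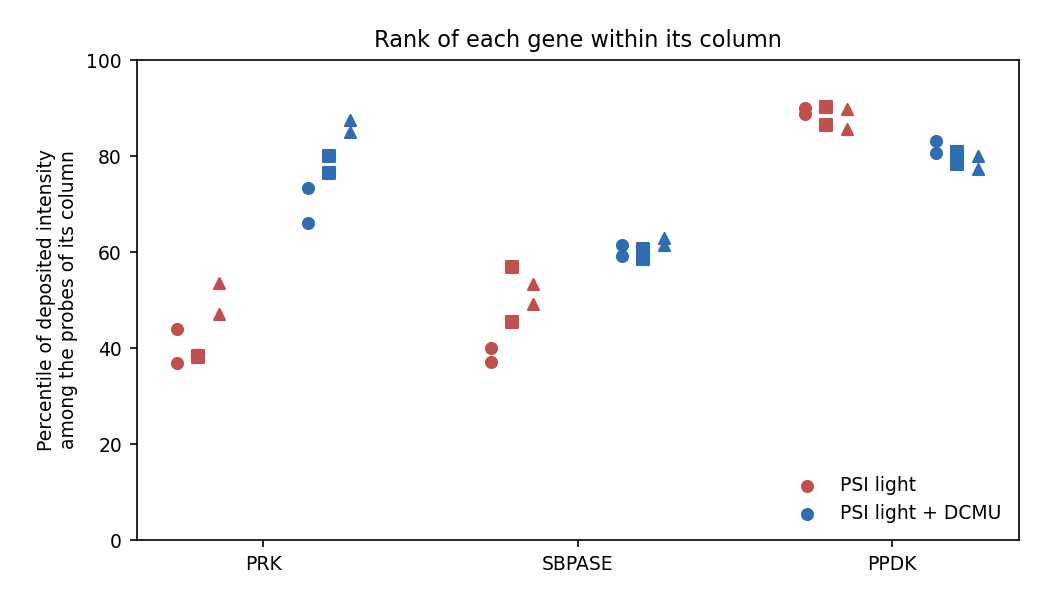
Percentile of deposited intensity among the 3439 probes of each column, for PRK, SBPASE and PPDK. Each point is 1 of 6 columns per group, and symbols mark columns 1 and 2 (circles), 3 and 4 (squares) and 5 and 6 (triangles). PRK goes from at most 53.6 to at least 66.1, SBPASE from at most 56.9 to at least 58.5, and PPDK from at least 85.6 to at most 83.0.

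Of the 692 probes with 1 gene, 68 had a larger log2 fold change than PRK and 174 a larger one than SBPASE, and 175 had a lower one than PPDK. Over all 3439 probes, 91.0% had a lower value than PRK, 75.3% a lower one than SBPASE and 26.3% a lower one than PPDK. The middle of the distribution ran from -0.57 to 0.42 (first to last quartile), so that PRK stood above it, SBPASE at its upper edge and PPDK inside it near the lower edge.

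**Figure D3:**
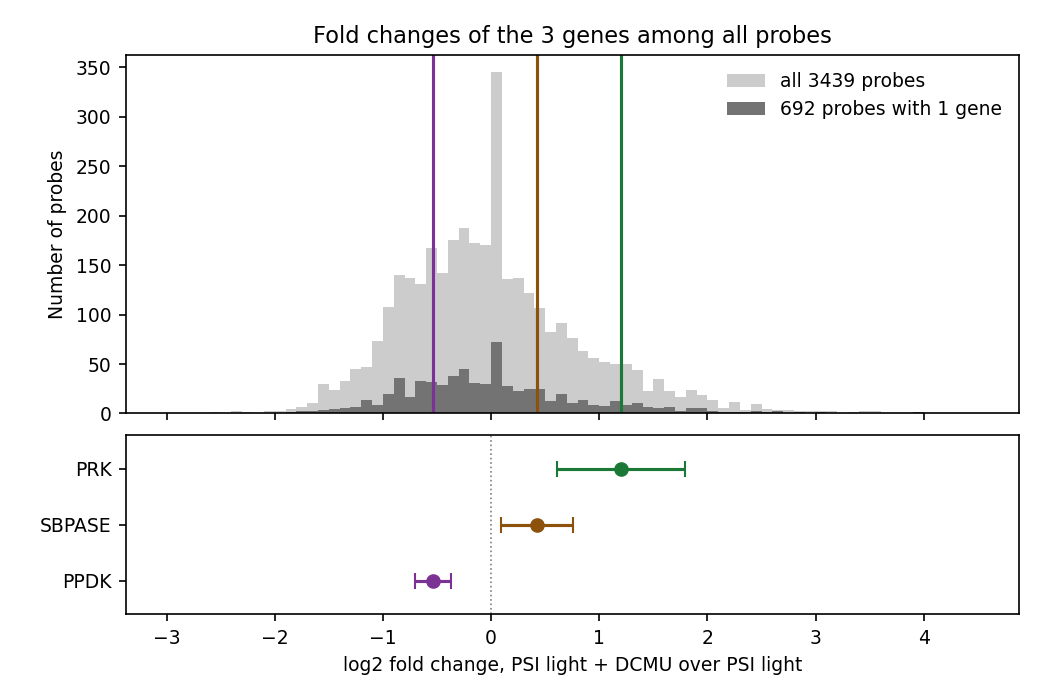
Top, number of probes by log2 fold change (PSI light + DCMU over PSI light) for all 3439 probes (light grey) and the 692 probes with 1 gene (dark grey), with lines at PRK, SBPASE and PPDK. Bottom, log2 fold change and 95% interval of each gene. The peak at 0 includes 167 probes at the lower limit of intensity in all 12 columns; PRK is at 1.20, SBPASE at 0.42 and PPDK at -0.54.

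Whether the genes responded differently from each other was tested with the exact permutation test, two-sided, over the 6 averages. The log2 fold change of PRK exceeded that of PPDK by 1.74 (SE 0.30), and that of SBPASE exceeded it by 0.96 (SE 0.18). PRK exceeded SBPASE by 0.78 (SE 0.25). In each of the 3 comparisons the groups did not overlap. The share of other gene pairs for which this holds was not computed, and 55.3% of single probes did not overlap over the 3 averages. In each comparison p was 0.10 before and after Benjamini-Hochberg adjustment. This is the smallest that 3 against 3 allows, so none could pass, and the test cannot decide whether the genes differ. Scaling a column by 1 factor cancels in such a difference by construction. With no scaling or such a factor the values were 1.75 for PRK against PPDK, 0.96 for SBPASE against PPDK and 0.79 for PRK against SBPASE. With cyclic loess they were 1.83, 1.02 and 0.82 in the same order. After the position correction the differences were 1.45, 0.93 and 0.51 in the same order (adjusted p = 0.15, 0.15 and 0.30), and with an offset in place of the lower limit 1.52, 0.84 and 0.68.

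The probes numbered next to each gene on the platform differed among the 3 genes in how many were called in each direction. Of the 100 probes numbered nearest to PRK, 24 were called higher and 23 lower, with a median log2 fold change of -0.0018. For SBPASE 11 were called higher and 40 lower (median -0.31), and for PPDK 12 higher and 43 lower (median -0.27). SBPASE thus stood above most of its neighbours, of which 15 had a larger value, while 63 of PPDK's neighbours had a larger value than PPDK. After subtraction of the running median over 50 neighbours on each side, PRK stood at 1.22 (adjusted p = 0.00293) and SBPASE at 0.71 (adjusted p = 0.00491), both called higher, as were 24.5% of all probes. PPDK stood at -0.22 and was not called (adjusted p = 0.183), while 47.1% of all probes were called in either direction and 22.7% lower. The part of position on the array in these values was not tested further, and the files do not say how the numbering maps to the array.

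**Figure D4:**
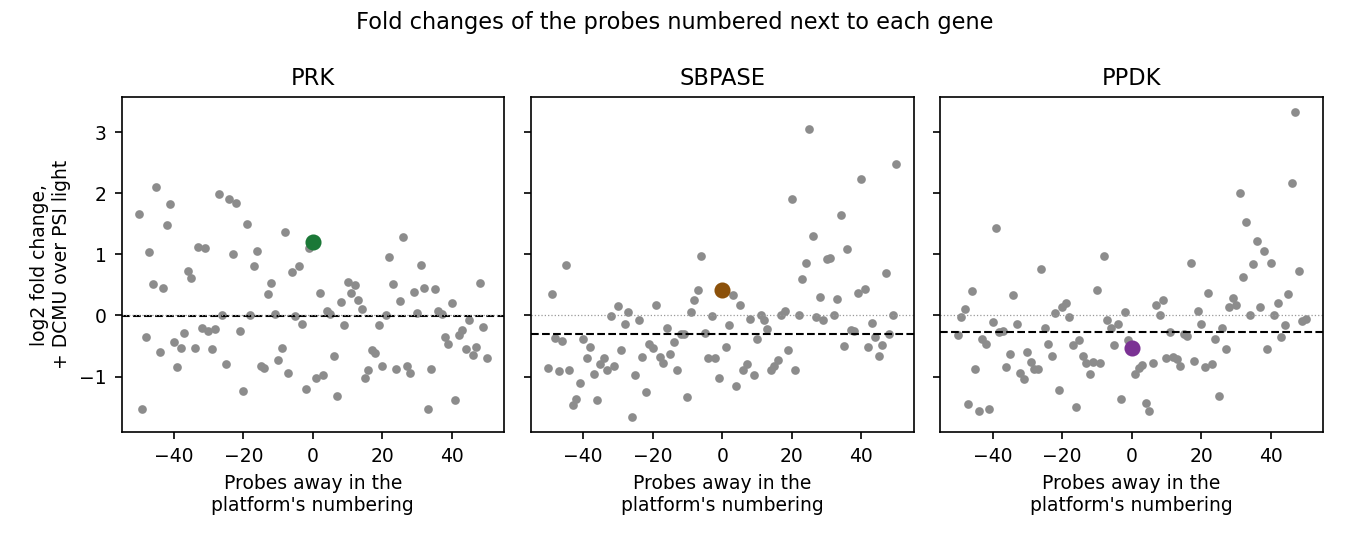
Log2 fold change of the 50 probes on each side of PRK, SBPASE and PPDK in the platform's numbering. The coloured point at 0 is the gene, grey points are its neighbours, and the dashed line is the neighbours' median, at -0.0018, -0.31 and -0.27. PRK and SBPASE lie above most neighbours, and PPDK lies among them.

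The 3 genes kept their sign under all 18 alternative processings, while the calls did not all hold. PRK passed in 17 of them, with log2 fold changes of 0.86 to 1.40. PPDK also passed in 17, with -0.89 to -0.22, and the exception was the position correction. SBPASE passed in 6, with 0.07 to 0.71.

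**Figure D5:**
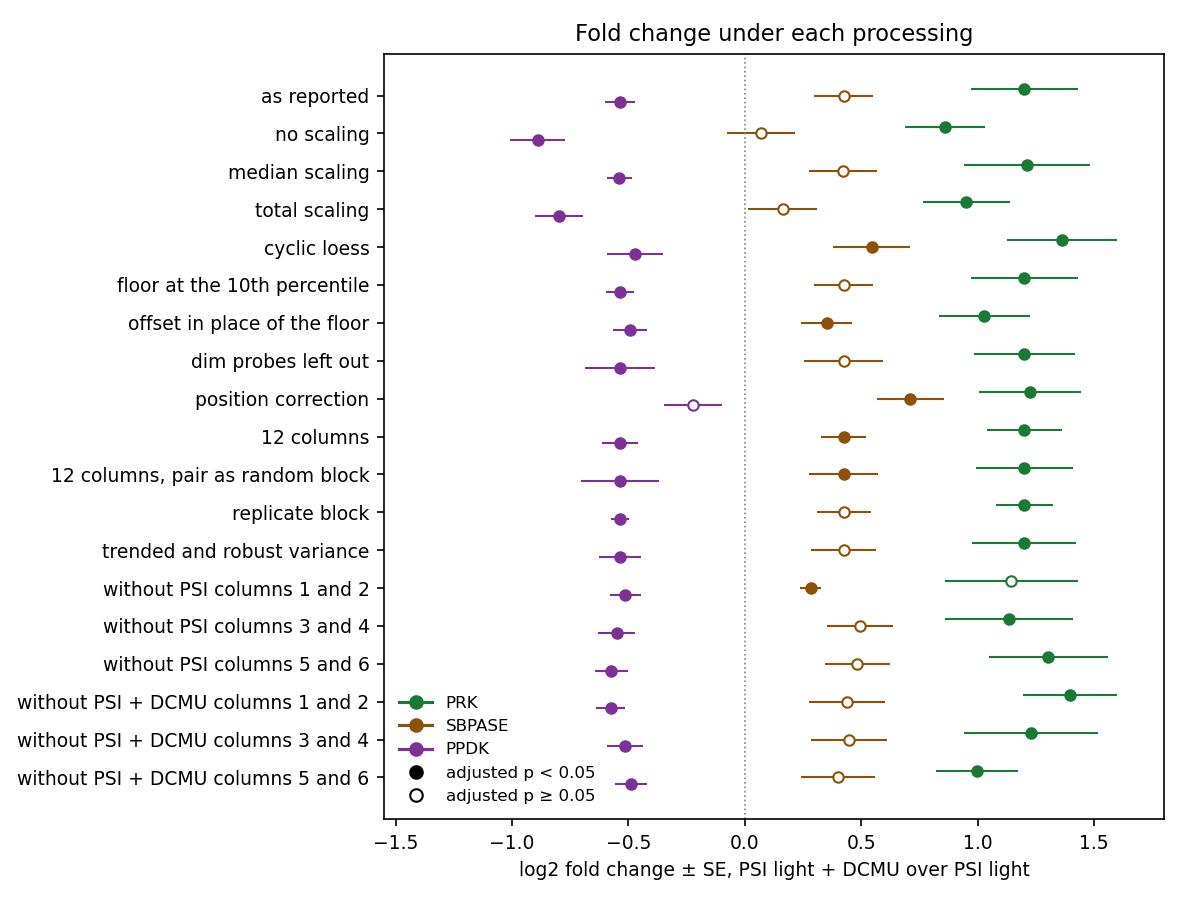
Log2 fold change ± SE of PRK, SBPASE and PPDK as reported and under 18 alternative processings. Filled points passed an adjusted p of 0.05 over all probes tested in limma's model and open points did not. PRK lies between 0.86 and 1.40, SBPASE between 0.07 and 0.71, and PPDK between -0.89 and -0.22.

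Few other genes of these pathways could be measured. Of 25 Calvin cycle genes listed by locus, 2 had a probe of their own, PRK, which rose, and SBPASE, which did not pass. A further 2 probes were both annotated to the same gene of this list, RCA, together with another gene. They had log2 fold changes of -0.10 and 0.04, and neither was called. In a list of 24 genes of pyruvate and phosphoenolpyruvate metabolism, which holds the regulators of PPDK and the plastid transporters of its substrates and product, PPDK alone had such a probe. Among 13 genes of the plastid thioredoxin system that activates PRK and SBPASE, 2 had one. FTRB, the catalytic subunit of ferredoxin-thioredoxin reductase, fell by 0.46 (adjusted p = 0.00819) and the thioredoxin reductase NTRC by 0.82 (adjusted p = 0.0481), where 25% of all probes were called lower. A further probe annotated to several genes of this list stood at 0.27 and was not called. Neither was called after the position correction, at -0.23 (adjusted p = 0.132) and -0.40 (adjusted p = 0.0841), and NTRC passed in 1 of 6 settings without 1 couple of columns. FTRB was also not called with cyclic loess (-0.34, adjusted p = 0.0545), nor NTRC with median scaling (-0.83, adjusted p = 0.0514) or a higher lower limit (adjusted p = 0.0520).

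The genes most like each of the 3 were taken by the root mean square difference between log2 profiles over the 6 averages, each profile centred on its mean, among 545 other probes with 1 gene and above the lower limit in every column. Nearest to PRK were AT1G18060 (0.14), AT5G22340 (0.15) and AT3G28460 (0.18), against a median distance of 0.78. These 3 rose by 1.24, 1.36 and 1.06 on the log2 scale. In PSI light AT1G18060 and AT5G22340 stood at -2.69 and -2.63, near the lower limit of -3.19, and PRK at -1.20. With an offset in place of that limit the 3 rose by 0.84, 0.95 and 0.82, and PRK by 1.03. None of the 3 was tested when dim probes were left out. Nearest to SBPASE were AT2G21530 (0.13), AT5G63490 (0.14) and AT3G07790 (0.14), against a median of 0.46. None of them passed in the main model, with log2 fold changes of 0.43, 0.43 and 0.27. Under the 18 alternative processings AT2G21530 and AT5G63490 passed in 5 each and AT3G07790 in 1. Nearest to PPDK were AT1G50020 (0.10), AT2G03390 (0.10) and AT2G47390 (0.10), against a median of 0.36. They fell by 0.49, 0.39 and 0.65, and 2 of them, AT2G03390 (-0.18) and AT2G47390 (-0.28), were not called after the position correction. AT1G50020 passed in 10 of its 17 alternatives and AT2G03390 in 14 of 18. The choice depended on the scaling: with no scaling, 0 of the 3 genes nearest to PRK were kept, 1 of those nearest to SBPASE and 2 of those nearest to PPDK. With cyclic loess 3, 2 and 1 were kept, and after the position correction 1, 0 and 1. All profiles share the 6 averages and their scaling. Those averages hold the difference between the groups, so fold changes near that of PRK, SBPASE or PPDK follow from the choice. They are not a separate result.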

How the data were processed

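Relative intensity values of 3439 probes in 12 columns were used as deposited, linear and relative to the brightest probe of each column; the sources used here do not say what the authors did before that. Values were quantile normalised, raised to at least the 5th percentile of positive values (0.110) and turned to log2; the 3 genes were above that limit in all 12 columns. Columns 1 and 2, 3 and 4, and 5 and 6 of each group were averaged on the log2 scale. limma 3.58.1 in R 4.3.3 (lmFit, eBayes) compared PSI light + DCMU with PSI light, 3 averages each, with Benjamini-Hochberg adjustment over all probes and a threshold of 0.05. The code of the model was run on simulated data with independent noise and fewer changed probes than were called here. That run does not show how well the model holds for these data. Gene names came from the platform's annotation, updated by gene identifier with RefSeq's TAIR10.1 table: 692 had 1 gene, 870 several and 1877 none. No coordinates are given, since the files name no build. Besides the 3 genes, the text names listed genes with a probe of their own and the 3 genes nearest to each in profile. The genes and lists were chosen with earlier results of these data known. The alternatives were other scalings, lower limits, units of replication and variance models, a filter on dim probes, a position correction and the loss of each couple of columns. Same-numbered averages of the groups deviated together at correlations of 0.10, 0.31 and 0.27, against -0.27 to -0.03 for averages of unequal number. Each number thus correlated most with its own number in the other group. The main model nevertheless does not pair equal numbers. A fit with equal numbers as a replicate block is given in the closing section. Arrays have no read depth, and their number limits the precision. Plots were made in Python 3.11.15 with matplotlib 3.10.9.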

Additional observations from a re-analysis of the deposited data

How the results depend on the processing

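SBPASE passed with cyclic loess (0.54), an offset in place of the lower limit (0.35), the position correction (0.71), and the 12 columns as replicates or with couples as a random block (0.42 in each). PPDK did not pass after the position correction (-0.22); the cause of these changes was not tested. Without 1 couple of columns, log2 fold changes were 0.998 to 1.40 for PRK, 0.28 to 0.49 for SBPASE and -0.58 to -0.49 for PPDK, and 1151 to 1290 probes were called (471 to 574 higher, 643 to 725 lower). With dim probes left out and 1720 tested, 798 were called (336 higher, 462 lower). After the position correction 841 were higher and 779 lower. With the replicate block, 1394 were called and no call on the 3 genes changed (adjusted p = 0.0167 for PRK, 0.0761 for SBPASE and 0.0130 for PPDK). Over 12 columns, where couples are not independent, the exact permutation test gave an adjusted p of 0.00216 for each difference between genes (0.78, 1.74 and 0.96); these differences were not run with the random block or the trended, robust variance model. AT3G07790 changed sign with no scaling (-0.073); without scaling the median of all probes was -0.32. Alternatives for genes other than the 3 were added after seeing the data.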
